A study of Mus musculus with 6 samples.

Results

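The Schwann cell and myelin genes Mbp, Prx, Mag, Pmp22, Sox10 and S100b were followed across RNA-seq libraries of mouse skeletal stem cells from the Achilles tendon-to-bone interface. The members were chosen by gene symbol, and all 6 were found among the 26130 rows of the deposited count table. The animals were C57BL/6 mice, and the labels name no transgene, other allele or age. Skeletal stem cells, which renew themselves and form bone, cartilage and stroma, were isolated by fluorescence-activated cell sorting from the digested interface, and cDNA was amplified from 150 pg of total RNA. The groups were sham control (n = 2), uninjured (n = 1) and partially injured at the interface (n = 3), all at day 7 per the series' design. Title and treatment label set the uninjured library apart, although its description groups it with the shams. The annotation (GENCODE M21, GRCm38) places Mbp on chromosome 18, Prx and Mag on 7, Pmp22 on 11, Sox10 on 15 and S100b on 10. The labels do not say whether libraries came from separate mice or from pools, so p-values measure only the spread between these libraries, which may be partly technical.

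Schwann cells are the glia of peripheral nerves. Some wrap large axons in compact myelin, a stack of membranes that holds Mbp and Pmp22, and others ensheathe small axons without myelin. Sox10 specifies the lineage and, with Egr2, drives the myelin genes, while after a nerve injury Schwann cells shut down myelin genes and take up a repair state. Tendon and enthesis are reached by small nerve branches, and Schwann cells are a lineage apart from skeletal stem cells. Whether the sorted cells make some of these genes themselves was not tested. Several of these genes are not private to Schwann cells. Pmp22 was first found as a growth-arrest gene of fibroblasts, S100b is also made by chondrocytes, Sox10 by melanocytes, and the Mbp locus also gives rise to non-myelin transcripts in blood cells.

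Totals ran from 37506188 to 51089267 counts, and the stem cell surface genes Itgav and Cd200 were detected in all 6 libraries, at 31.1 to 116 and 31.0 to 160.2 CPM. The usual gate for these cells, as background, takes Itgav+ Cd200+ cells and leaves out cells with Ptprc (blood), Tek (endothelium) or Thy1, while the labels do not give the gate used here. Sham 1, injured 1 and injured 2 had 9.95, 24.8 and 15.1 CPM of Ptprc, and no other library exceeded 1.24. Tek was at 58.1 CPM in sham 1 and 61.7 in the uninjured library and at most 9.28 elsewhere. Thy1 was at 11.8, 14.3 and 4.38 CPM in sham 1, injured 1 and injured 2 and at most 0.193 elsewhere. CPM is the count relative to library size after adjustment by the trimmed mean of M-values (TMM). Sham 1 and injured 1 had the highest shares of ribosomal RNA, 15.0% and 14.7%, against 2.89% to 5.32% elsewhere. Haemoglobin made up 4.80% of sham 1 and 0.711% of injured 1 but no more than 0.0904% of any other library. Sham 1 stood apart from sham 2, and the members' fold changes against sham are given with and without it. Without sham 1, sham 2 is the only sham library, so those values against sham are given without a p-value.

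The summed share of the 6 members ran from 0.0278% to 0.386% of counts. Sham 1 had 0.386% (exact 95% binomial interval 0.384% to 0.388%, counting error only), sham 2 0.0667% and the uninjured library 0.0995%. Injured 1, 2 and 3 had 0.0415%, 0.0365% and 0.0278%. The injured libraries lay below all libraries without injury, and sham 1 lay far above the rest. Pmp22 made up 42.1% of the members' counts in sham 1 and from 73.7% to 89.8% in the remaining libraries. Without Pmp22 the sum reached 2319 CPM in sham 1 and 196 in sham 2. The uninjured library had 122, and injured 1, 2 and 3 had 122, 31.3 and 51.4. Of all 16752 genes tested, 19.4% were highest in sham 1 and 2.59% were at least 5-fold higher there than in any other library. Of the 6 members, 5 were highest in sham 1, and Mbp, Prx, Mag and Sox10 were at least 5-fold higher there than anywhere else. In bulk RNA, fewer cells of a type and less RNA per cell cannot be told apart.

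**Figure D1:**
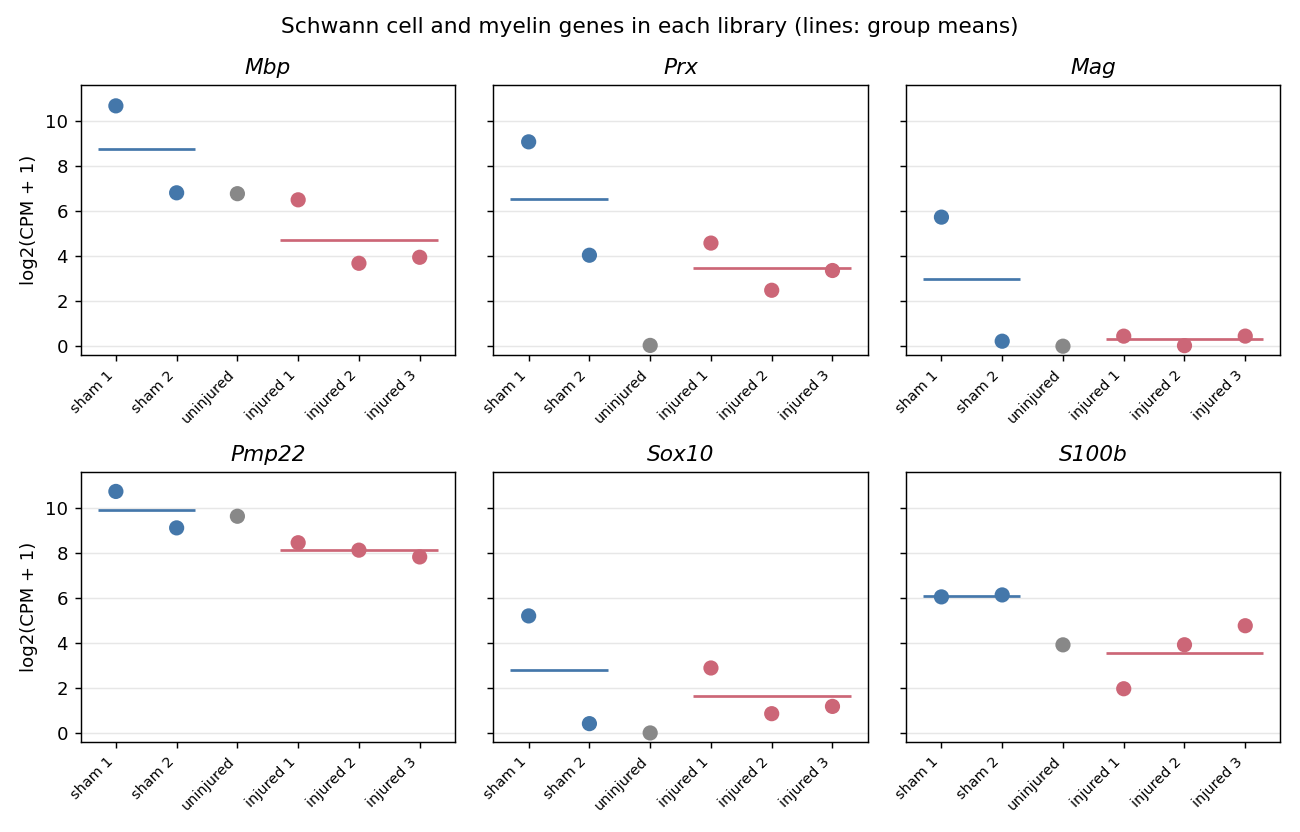
Level of each member as log2(CPM + 1) in the 6 libraries, 1 point a library and lines at the group means. Mbp, Prx, Mag and Sox10 stand highest in sham 1, S100b is alike in both sham libraries, and the uninjured library has Mbp and Pmp22 but almost no Prx, Mag or Sox10.

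The structural proteins of compact and wrapping myelin come first. Mbp codes for myelin basic protein, which seals the cytoplasmic faces of the myelin membrane. It stood at 1629 and 111 CPM in sham 1 and 2, at 108 in the uninjured library, and at 89.4, 11.8 and 14.4 CPM in injured 1, 2 and 3. All injured libraries were below both sham libraries, but injured 1 was close to sham 2 and to the uninjured library. The group means were 38.6 ± 44.1 CPM in injured (SD, n = 3) and 870.2 ± 1073 in sham (SD, n = 2). The log2 fold change of injured against sham was -4.50 ± 1.31 (SE; edgeR quasi-likelihood unadjusted p = 0.0114, adjusted p = 0.865). Without sham 1 it was -1.53 ± 1.11 (SE).

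Prx codes for periaxin, a scaffold that ties the outer Schwann cell membrane to the basal lamina. Sham 1 and 2 had 538 and 15.4 CPM, and injured 1, 2 and 3 had 22.9, 4.59 and 9.27 CPM. The uninjured library had 1 count. The groups overlapped, because sham 2 lay between injured 1 and injured 3. The log2 fold change was -4.50 ± 1.33 (SE; edgeR unadjusted p = 0.0122, adjusted p = 0.865) and -0.33 ± 1.15 without sham 1. Reads of Prx and of the annotated antisense gene Gm15541, which overlaps it, cannot be told apart where strand is not used. The overlap search found no other gene for the remaining members.

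Mag codes for myelin-associated glycoprotein, an adhesion molecule on the membrane next to the axon. It had 1927 counts in sham 1, a level of 52.1 CPM. Sham 2 had 6 counts, the uninjured library 0, and injured 1, 2 and 3 had 16, 1 and 17. A count of 0 in the uninjured library allows a share of up to 8.00e-06% of counts. Mag was thus near its detection limit in every library but sham 1. Its log2 fold change of -6.71 ± 2.26 (SE; edgeR unadjusted p = 0.0214, adjusted p = 0.865) turned to 0.57 ± 3.59 without sham 1.

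Pmp22 codes for peripheral myelin protein 22, a membrane protein of compact myelin that many stromal cells also make. It stood at 1689 and 549.6 CPM in sham 1 and 2, at 786 in the uninjured library, and at 348, 276 and 224 CPM in injured 1, 2 and 3. The 3 injured libraries were close to each other and lay below every library without injury. The log2 fold change was -1.99 ± 0.56 (SE; edgeR unadjusted p = 0.00945, adjusted p = 0.865). Without sham 1 it was -0.96 ± 0.48 against sham (SE) and -1.24 ± 0.38 against sham 2 and the uninjured library together (SE; edgeR unadjusted p = 0.0143).

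The lineage regulator and the calcium-binding protein follow. Sox10 is the transcription factor of the Schwann cell lineage. Sham 1 had 1319 counts of it, sham 2 had 12 and the uninjured library none. Injured 1, 2 and 3 had 282, 49 and 59. These are 35.7 and 0.331 CPM in sham 1 and 2 and 6.38, 0.809 and 1.26 CPM in injured 1, 2 and 3. All injured libraries lay between sham 2 and sham 1. The log2 fold change was -2.67 ± 1.78 (SE; edgeR unadjusted p = 0.178, adjusted p = 0.865) and turned to 3.08 ± 2.71 without sham 1.

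S100b codes for a calcium-binding protein of glia and chondrocytes. It stood at 64.8 and 68.9 CPM in sham 1 and 2, at 14.0 in the uninjured library, and at 2.90, 14.1 and 26.1 CPM in injured 1, 2 and 3. Both sham libraries were alike and above all injured libraries, while the uninjured library lay among the injured ones. The log2 fold change was -2.22 ± 0.83 (SE; edgeR unadjusted p = 0.0321, adjusted p = 0.865) and -2.26 ± 1.03 without sham 1. S100b is the member whose fold change moved least when sham 1 was left out, and the only one not highest in sham 1.

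Promoter sequence is shown for 3 myelin proteins, so that the windows of genes high in sham 1 can be set side by side. The promoter set used here held no window for Mbp or Sox10. The RefSeq windows (GRCm38.p6) reach from 250 bases before to 50 bases after an annotated transcription start, and hold 1 for Prx, 3 for Mag, 4 for Pmp22 and 1 for S100b. The first listed window is shown for Prx (chr7:27499074-27499373, plus strand) and Mag (chr7:30914873-30915172, minus strand). For Pmp22 the first 2 windows are shown (chr11:63128732-63129031 and chr11:63131207-63131506, plus strand). More than 1 is given because a myelin promoter and a widely used one are known for this gene and the counts sum its transcripts. Which of the 4 windows belongs to which promoter was not tested, and windows 3 and 4 are not shown. Capitals mark a match to the SOX core ACAAAG or ACAATG, or to the EGR core GTGGGCG, on either strand.
Prx: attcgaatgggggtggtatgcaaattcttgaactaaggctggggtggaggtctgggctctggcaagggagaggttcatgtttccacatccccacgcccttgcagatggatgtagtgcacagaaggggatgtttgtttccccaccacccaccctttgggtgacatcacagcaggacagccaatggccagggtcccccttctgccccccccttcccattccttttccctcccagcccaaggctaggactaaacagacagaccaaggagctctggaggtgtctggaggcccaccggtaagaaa
Mag: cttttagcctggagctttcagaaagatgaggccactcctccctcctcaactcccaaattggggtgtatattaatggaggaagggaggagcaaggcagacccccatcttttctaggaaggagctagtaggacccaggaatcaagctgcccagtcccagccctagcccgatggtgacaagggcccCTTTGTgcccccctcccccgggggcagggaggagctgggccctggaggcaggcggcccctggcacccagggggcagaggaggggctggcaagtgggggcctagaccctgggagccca
Pmp22 first window: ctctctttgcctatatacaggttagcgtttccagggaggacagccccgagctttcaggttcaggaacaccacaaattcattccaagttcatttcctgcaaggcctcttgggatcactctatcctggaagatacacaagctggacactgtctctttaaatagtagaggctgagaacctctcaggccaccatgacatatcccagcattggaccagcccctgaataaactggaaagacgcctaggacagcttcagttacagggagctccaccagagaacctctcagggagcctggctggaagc
Pmp22 second window: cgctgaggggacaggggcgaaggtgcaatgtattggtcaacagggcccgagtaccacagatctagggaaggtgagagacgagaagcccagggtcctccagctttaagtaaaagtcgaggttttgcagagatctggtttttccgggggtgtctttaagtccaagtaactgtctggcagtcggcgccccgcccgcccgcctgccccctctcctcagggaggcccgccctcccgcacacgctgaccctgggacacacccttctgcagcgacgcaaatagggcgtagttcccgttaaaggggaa
The Mag window holds CTTTGT, the reverse complement of ACAAAG, at position -67 from the start. That core is found in 18.7% of the 32851 promoter windows, ACAATG in 12.6% and GTGGGCG in 7.97%. The Prx, Pmp22 and S100b windows hold none of them, which says only that these letters are not there.

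The members did not keep fixed proportions from library to library. For every 100 counts of Mbp, sham 1 and 2 had 33 and 13.9 of Prx and the uninjured library 0.0225, while injured 1, 2 and 3 had 25.6, 38.8 and 64.2. Of Sox10, sham 1 and 2 had 2.19 and 0.298 and the uninjured library none, while injured 1, 2 and 3 had 7.14, 6.84 and 8.75. The 3 injured libraries were thus close to each other and above sham 1 in Sox10 relative to Mbp. Since Mbp itself was lowest in the injured libraries, 36.9% of all genes tested lay wholly higher there relative to Mbp. Of S100b, sham 1 had 3.98 and injured 1 had 3.24, and the other libraries ranged from 13.0 to 181. The uninjured library held 4447 counts of Mbp and 32308 of Pmp22 beside 1 of Prx and none of Mag or Sox10, whereas sham 1 had all 6 members.

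**Figure D2:**
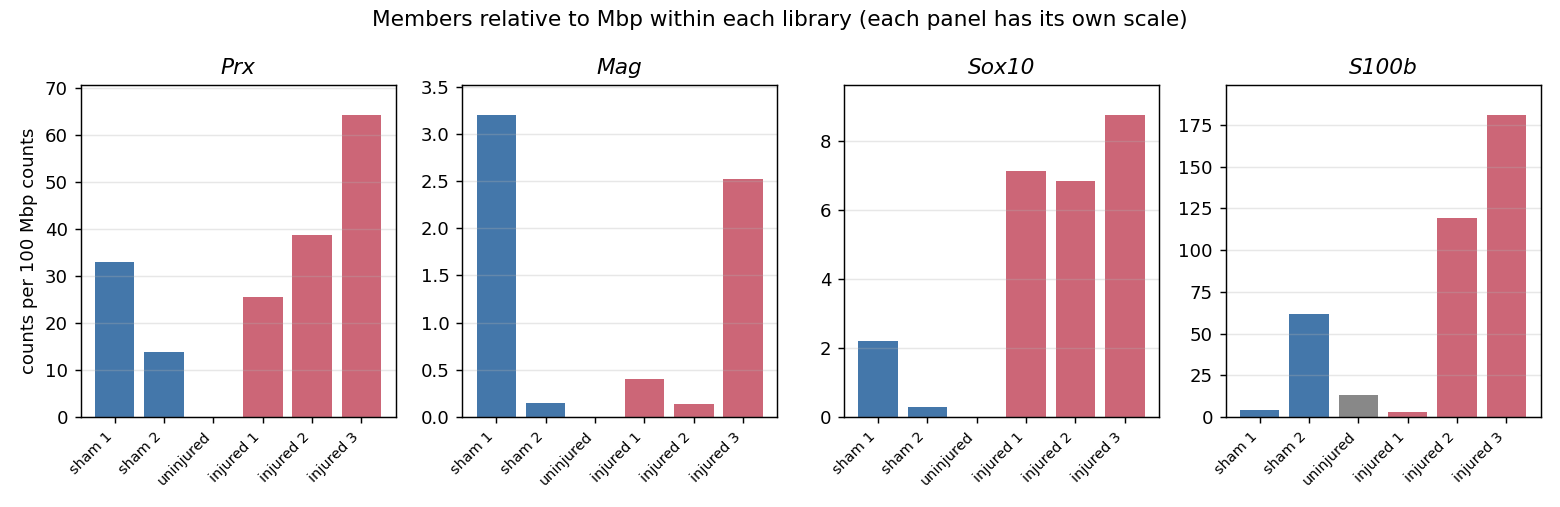
Counts of Prx, Mag, Sox10 and S100b for every 100 counts of Mbp in each library, with a linear axis of its own in each panel. Prx, Mag and Sox10 are at or near 0 in the uninjured library, and Sox10 lies between 6.84 and 8.75 in the 3 injured libraries.

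Injured against sham, all 6 members passed the low-count filter and all 6 had a fold change below 0, where 46.0% of all genes tested did. Their median log2 fold change was -3.59, beside 0.09 over all genes tested. By edgeR no member passed an adjusted p of 0.05, and none of the 16752 genes did (0%). At an unadjusted p under 0.05, 5 members were lower (all but Sox10), where 2.20% of genes were lower and 4.64% differed in either direction. A log2 fold change below -2 was seen for 5 members, all but Pmp22, and for 8.88% of genes. DESeq2 called Mbp, Prx, Mag and Pmp22 lower (adjusted p = 0.00591, 0.00926, 0.0242 and 0.0274), where it called 0.770% of genes lower. These calls include sham 1, and DESeq2 was not run without it. For Mbp, Pmp22 and S100b the injured libraries lay wholly below the sham libraries, where 9.12% of genes did, and for no member were they wholly above (11.9% of genes). Without sham 1, which left sham 2 as the only sham library, 4 of 6 members were below 0. The median was then -0.65 beside 0.26 over all genes. Without sham 2, which left sham 1 alone, 6 of 6 were below 0 and the median was -4.53. Limma-voom called 0 members (0.00597% of genes), and by it 3 had an unadjusted p under 0.05.

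Injured against sham and uninjured together shares its injured and sham libraries with the first comparison. All 6 members again passed the filter and had a fold change below 0 (49.9% of genes), with a median of -3.01 beside 0.00 over all genes. No gene of 14110 passed by edgeR (0%), and Mbp and Pmp22 were lower at an unadjusted p under 0.05 (3.72% of genes, and 7.43% in either direction). A log2 fold change below -2 was seen for 4 members and 5.92% of genes. Mbp stood at -4.00 ± 1.39 and Pmp22 at -1.84 ± 0.50 log2 units (SE; edgeR adjusted p = 0.552 and 0.452). Both were also the members whose injured libraries lay wholly below all 3 libraries without injury (7.07% of genes), and no member lay wholly above (9.23%). The values of Prx, Mag, Sox10 and S100b were -3.92 ± 2.21, -6.14 ± 2.90, -2.09 ± 2.28 and -1.78 ± 0.89 (SE). DESeq2 called Pmp22 alone of the members (adjusted p = 0.0101), and it called 1.45% of genes lower and 2.45% in either direction. It gave a fold change but no p for Mbp, Prx, Mag and Sox10. These are the members at least 5-fold higher in sham 1 than anywhere else, and why p was missing was not tested. The DESeq2 calls of Mbp, Prx and Mag against sham thus have no DESeq2 p beside them in this comparison. Limma-voom called 0 members (0.0496% of genes). Without sham 1, 3 of 6 members were below 0 and the median was -0.29.

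**Figure D3:**
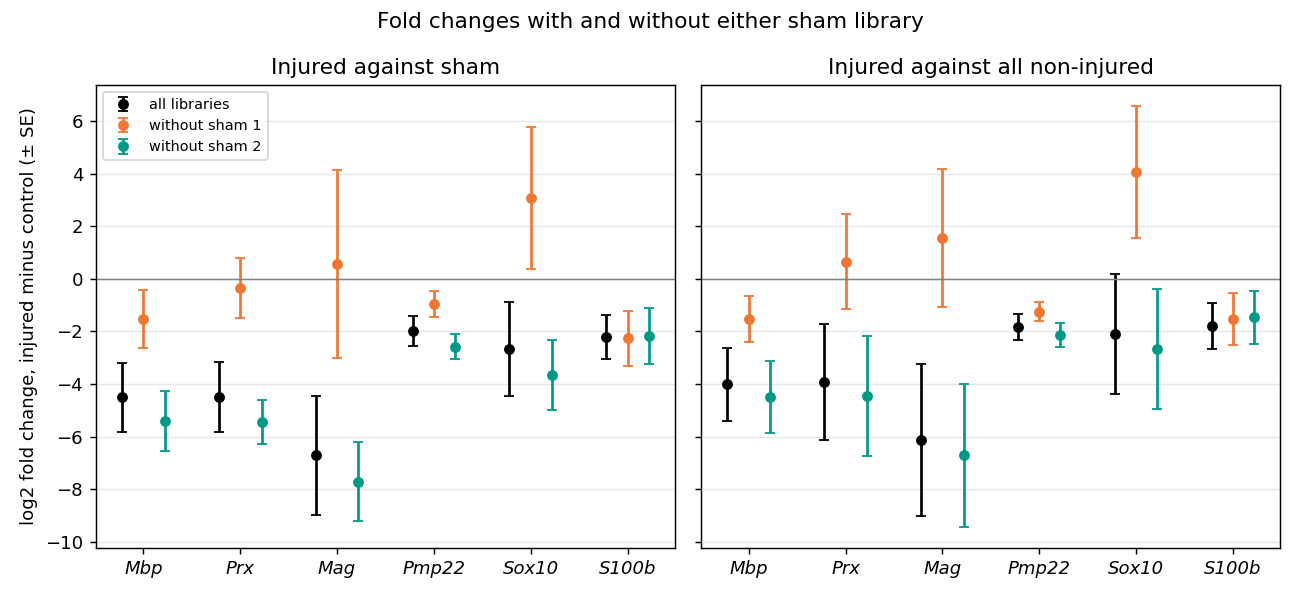
Log2 fold change (± SE) of each member, injured minus control, with all libraries, without sham 1 and without sham 2, for both comparisons. Without sham 1, Mag and Sox10 lie above 0 in both panels and Prx in the right one, whereas Mbp, Pmp22 and S100b stay below 0.

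Other myelin genes were read from a list of 20. Of these, 18 had a fold change below 0 against sham, 5 had an unadjusted p under 0.05 (all lower), and 0 passed by edgeR (2 by DESeq2, Cldn19 and Drp2, both lower). The median was -2.55. Without sham 1, 12 of 20 were below 0 and the median was -0.59. In 15 of the 20 the highest library was sham 1.

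The myelin genes with the smallest p against sham were Drp2, Cnp, Cldn19 and Lgi4. Drp2, the dystrophin-related partner of periaxin, stood at 127 and 7.32 CPM in sham 1 and 2 and at 3.71, 4.97 and 2.66 CPM in injured 1, 2 and 3. The claudin Cldn19 of Schwann cell junctions stood at 37.1 and 7.68 CPM in sham and at 0.498, 0 and 0.514 CPM in injured libraries, with 0 in the uninjured library. The glycoprotein Lgi4, secreted by Schwann cells, stood at 30.8 and 21.2 CPM in sham 1 and 2, at 11.5 in the uninjured library, and at 8.19, 4.16 and 5.10 CPM in injured 1, 2 and 3. Lgi4 was therefore alike in both sham libraries, and its injured libraries lay below all others. The myelin enzyme Cnp stood at 276 and 38.2 CPM in sham and at 25.6, 19.6 and 34.8 CPM in injured libraries.

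Among 16 regulators and receptors of the lineage, 15 were tested against sham, 11 of them below 0, and 0 passed by edgeR (2 by DESeq2, Egr2 and Plekhb1, both lower). The median was -0.53, and -1.15 without sham 1. The highest library was sham 1 for 5 of the 16, fewer than in the myelin list. Egr2, the myelination switch that is also an early growth-response gene of many cells, stood at 111 and 211 CPM in sham 1 and 2, at 156 in the uninjured library, and at 19.2, 29.9 and 56.3 CPM in injured 1, 2 and 3. Its injured libraries lay below all others, and its highest library was sham 2. Plekhb1 stood at 171 and 11.8 CPM in sham 1 and 2 and at 7.67, 0.0826 and 1.35 CPM in injured libraries. The neuregulin receptor Erbb3, which Schwann cells need to survive, stood at 0.919 and 0.110 CPM in sham 1 and 2 and at 0, 0 and 1.37 CPM in injured 1, 2 and 3. The adhesion receptor Adgrg6, required to start myelination, stood at 0 and 0.911 CPM in sham libraries and at 8.12, 14.6 and 12.1 CPM in injured ones, with 6.67 CPM in the uninjured library (edgeR unadjusted p = 0.0575).

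Genes of non-myelinating and repair Schwann cells did not share the direction of the members. Of 16 genes, 14 were tested, 11 with a fold change above 0 and 3 below, and 0 had an unadjusted p under 0.05 or passed by edgeR or DESeq2. Without sham 1 the split was 7 and 7. Shh had no count in any library. Ngfr, the low-affinity nerve growth factor receptor, was at 0 in all but the uninjured library (0.462 CPM) and injured 3 (0.492 CPM), and Gfap did not exceed 1.65 CPM. Ngfr and Gfap are among the genes above 0, so part of that count rests on low levels. Jun, which drives the repair state and is also a stress gene of most cells, stood at 1385 and 1243 CPM in sham and at 724, 632 and 959 CPM in injured libraries (edgeR unadjusted p = 0.118).

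Most endothelial, neutrophil and erythroid markers were highest in sham 1 like the members (14 of 15, 11 of 13 and 7 of 9 genes). Of the macrophage genes only 1 of 13 was, beside 19.4% of all genes tested. The endothelial sum over 15 genes was 3520.4 CPM in sham 1 but 12.7 in sham 2. The uninjured library had 1178 CPM, and injured 1, 2 and 3 had 714, 359 and 114. All 15 genes had a fold change below 0 against sham, with 0 past the threshold of edgeR or DESeq2. Without sham 1 this turned over, and all 15 were above 0, with sham 2 as the only sham library. Against sham 2 and the uninjured library together, again without sham 1, 10 of 15 were below 0. All 15 genes were detected in each library but sham 2, where 12 were at 0, among them Cdh5, Kdr and Vwf. Over 13 neutrophil genes, sham 1 and 2 had 11119 and 559 CPM and the injured libraries 95.8 to 6921. Over 13 macrophage genes, both sham libraries had 2914 and 47.3 CPM and the injured ones 37.5 to 4885. Of the genes tested, 11 of 13 neutrophil genes were below 0 against sham and 12 of 13 macrophage genes above 0. Without sham 1, 12 of 13 neutrophil genes and 13 of 13 macrophage genes were above 0. Over 9 erythroid genes, sham 1 and 2 had 38784 and 1.19 CPM and the injured libraries 7.86 to 6081, and 7 of 8 tested were below 0, whereas without sham 1 all 6 tested were above 0. Slc4a1 was at 0 in all libraries but sham 1, and DESeq2 called it lower. The part of these cells in the members' fold changes was not tested.

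Other cells that express some of the members were read in the same way. Of 8 oligodendrocyte genes, the defining ones Mog, Mobp, Opalin, Olig2 and Nkx2-2 were at 0 in all 6 libraries. The list's sum was 54.7 CPM in sham 1, most of it from Sox17, which endothelial cells also make, and 0.498 to 34.9 CPM elsewhere. Of its 3 genes tested, 2 were below 0 against sham, and 1 without sham 1. Of 8 melanocyte genes, Tyr and Tyrp1 were at 0 in all libraries and the sum was 27.8 CPM in sham 1 and 2.81 to 20.8 CPM elsewhere. Of its 4 genes tested, 3 were below 0 against sham, and 2 without sham 1. Mitf and Mlana lay wholly below sham in the injured libraries, Mlana with an unadjusted edgeR p of 0.0388. DESeq2 called Dct, present in injured 1 alone (2.44 CPM), higher. Over 14 chondrocyte genes, sham 1 had 6324 CPM, the lowest of the 6 libraries. Sham 2 had 31056, the uninjured library 8211 and the injured libraries 11103 to 59423. Comp alone gave 4756 CPM in sham 1 and 7067 in the uninjured library, and the place of sham 1 below the uninjured library rests on it. Col2a1 was lower in the uninjured library (495 CPM) than in sham 1 (1082 CPM). S100b, made by chondrocytes as well, was as high in sham 1 as in sham 2. Of the chondrocyte genes tested, 10 of 14 had a fold change above 0 against sham, as without sham 1, and DESeq2 called Cnmd and Col9a1 higher. The growth-arrest list, read beside Pmp22, had 11 of 14 below 0 (10 without sham 1), a median of -0.88, and 0 past edgeR's or DESeq2's threshold. Cdkn1a, the cell-cycle inhibitor with the smallest p in it, stood at 422 and 863 CPM in sham and at 256, 226 and 288 CPM in injured libraries (edgeR unadjusted p = 0.0197).

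**Figure D4:**
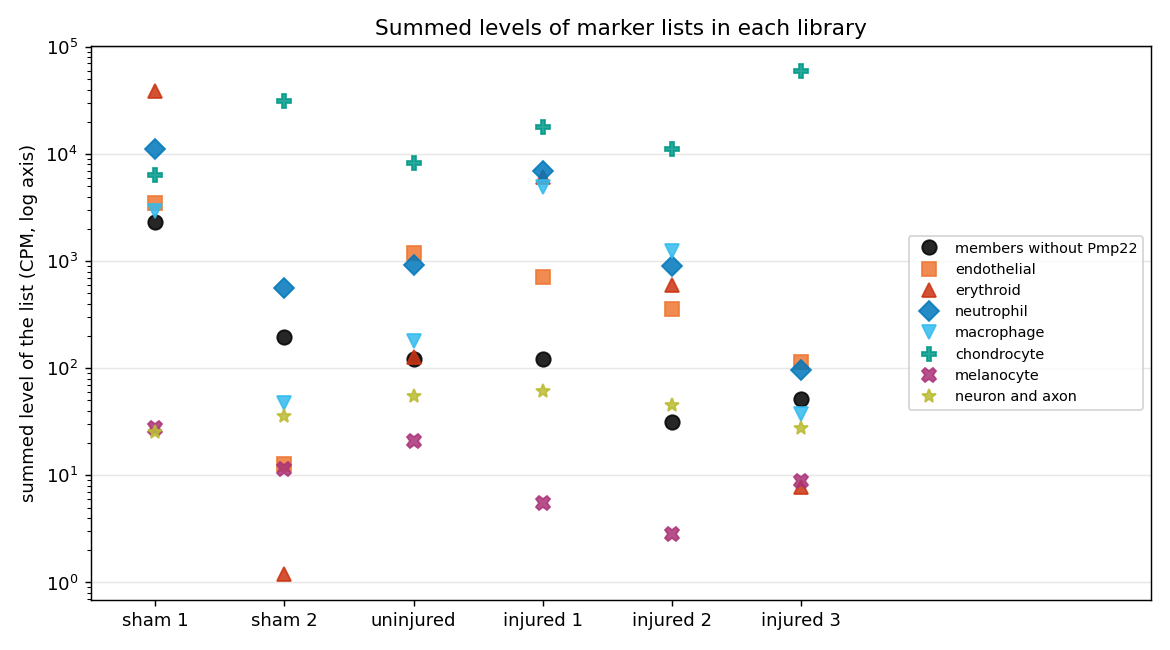
Summed CPM of the members without Pmp22 and of 7 marker lists in each library, on a log axis, 1 symbol a list. The members, endothelial, erythroid and neutrophil lists are highest in sham 1. The chondrocyte list is lowest there, where Comp gives 4756 of its 6324 CPM.

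The genes most like each member over the 6 libraries were found by Pearson's r of log2(CPM + 1) among genes with a mean of at least 10 CPM. The closest to Mbp were Stim1 (r = 0.98), Map3k6 (0.98) and Atp9a (0.98), and to Prx Thoc5 (0.98), Pard6g (0.98) and Gpr89 (0.98). The closest to Mag were Dctn2, Ap4s1 and Orai3 (0.99, 0.99 and 0.98), and Col4a3bp and Suds3 (0.98 and 0.98) were among the 3 closest to Sox10. For Pmp22 they were Aldh2, Pnpla2 and Syf2 (0.996, 0.994 and 0.989), with Aldh2 at 289.9 and 114 CPM in sham 1 and 2, 177 in the uninjured library, and 88.3, 73.7 and 62.3 CPM in injured 1, 2 and 3. For S100b they were Pdcd4, Rgs3 and Map1a (0.99, 0.98 and 0.98). All values come from the same 6 libraries, and between 7 and 32 of 9020 or 9021 genes exceeded r = 0.95 with each member. Between members, r was 0.94 for Mbp with Pmp22, 0.92 for Prx with Sox10 and 0.11 for Sox10 with S100b. A high r over 6 libraries can rest on sham 1 alone. Dctn2, for example, stood at 229.5 CPM in sham 1 and at 137 to 147 CPM elsewhere.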

How the data were processed

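RNA-seq of 6 libraries was analysed from 1 deposited table of whole-number counts for each gene symbol, taken as unscaled counts because the column totals differ, although scaling followed by rounding is not excluded. The tools named per the submitters' processing notes are DESeq, DESeq2 1.22.2 and Salmon 0.12.0, and the builds named are GRCm38.p6 and mm9, with no role for either. The sources used here do not give the annotation, the summing to genes or the use of strand. Reads carry no molecular identifiers, so intervals and floors (3 counts for a count of 0) cover counting error only. All 6 columns were used. Column names match the description labels, and groups follow the titles.

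Counts were scaled by TMM, filtered with filterByExpr (minimum count 10) and tested by the quasi-likelihood F test of edgeR 4.0.16 (R 4.3.3) with Benjamini-Hochberg adjustment over all genes and a threshold of 0.05. Injured against sham was fitted on all 6 libraries as 3 groups, and injured against all non-injured as 2 groups. Standard errors were derived from F. The pipeline was tested on simulated data. Alternatives were DESeq2 1.42.0, limma-voom (limma 3.58.1), other scalings, no filter, leaving out each library and a replicate block. Missing DESeq2 p-values were left missing. Promoters came from RefSeq (GRCm38.p6) and overlapping genes from GENCODE M21.

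The members and the 17 gene lists (217 entries, of which 2 erythroid symbols had no row) were chosen with earlier results of these data known. Genes named are the members, the 3 genes most like each, up to 4 genes a list (lowest p, injured against sham), genes of the 3 Schwann lists given for their role, and defining markers at 0. Itgav and Cd200 were added as a check of the sort. Some genes that this rule names are not reported here.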

Additional observations from a re-analysis of the deposited data

How the results depend on the processing

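With sham 1 left out, Mag and Sox10 turned from negative to positive log2 fold changes against sham (0.57 and 3.08), and against all non-injured libraries so did Prx, Mag and Sox10 (0.66, 1.55 and 4.07). With both sham 1 and injured 1 left out, an alternative added after seeing the data, Mag and Sox10 stood at 0.19 and 1.64 against sham and Sox10 at 2.63 against all non-injured, where Mag was not tested. The members' medians were then -1.15 and -1.05, and 2 members had an unadjusted edgeR p under 0.05 against all non-injured. Mbp stood at -3.08 ± 0.41 against sham (SE), with sham 2 as the only sham library. By limma-voom, Prx and Sox10 were positive against all non-injured (0.81 and 1.78), the cause was not tested, and 3 members had an unadjusted p under 0.05 against sham.

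Leaving out each library in turn moved the members' median from -4.72 to -0.65 against sham and from -4.13 to -0.29 against all non-injured. The members with an unadjusted edgeR p under 0.05 against all non-injured ran from 1 to 5. Over these settings the values of Mag, Sox10 and Prx ran from -7.71 to 0.57, -4.11 to 3.08 and -5.46 to -0.33 against sham, and from -6.75 to 1.55, -3.53 to 4.07 and -4.74 to 0.66 against all non-injured. In each case the median nearest 0 came without sham 1, and 5 against all non-injured came without the uninjured library. The count of genes called was 0 by edgeR in both comparisons (778 and 1049 at an unadjusted p under 0.05). It was 369 and 345 by DESeq2, 1 and 7 by limma-voom, and 3 and 5 without a filter, and stayed at 0 with each library left out. Mbp, Pmp22 and S100b kept a negative value under every alternative run.

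Scaling by library size alone or by relative log expression left every member negative, while the median over all genes against sham moved from 0.09 to 0.23 and 0.02. The fit without the uninjured library gave a members' median of -3.63. Without ribosomal RNA and haemoglobin genes in the total, the members took 0.104% of counts in the uninjured library, and their share moved from 0.386% to 0.482% in sham 1 and from 0.227% to 0.276% in the sham mean. Titles give sham and injured libraries 1 and 2 the same numbers, but no label says that these pair them. Deviations of same-numbered libraries correlated at 0.35 and 0.01, and those of the crossed pairs at -0.35 and -0.01. With 2 sham libraries the deviations mirror each other, so these values cannot decide whether sham and injured libraries 1 and 2 are paired. With the replicate block on those 4 libraries 0 genes were called, 5 members had an unadjusted p under 0.05 and the members' median was -3.29. Mag, at 0 to 17 counts outside sham 1, is limited by depth.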

Other observations

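Nerve tissue holds axons and sheath cells beside Schwann cells. Neuron and axon genes summed to between 25.7 and 61.1 CPM in the 6 libraries. Sham 1, the richest in the members, had the lowest sum, but injured 3 was close to it at 27.6 CPM. In sham 1, 8 of the 14 genes were detected. Sums this low cannot show whether nerve tissue was present, which was not tested. Of the 14 neuron and axon genes, 11 were tested against sham, 6 with a fold change above 0 (7 without sham 1). By edgeR or DESeq2, 0 passed. Snap25 had no count in any library. The tubulin Tubb3 stood at 0.135 and 2.95 CPM in sham libraries and at 29.7, 11.3 and 7.86 CPM in injured 1, 2 and 3 (edgeR unadjusted p = 0.0686). The neuronal filament gene Prph stood at 0.216 and 0.110 CPM in sham libraries and at 9.10, 1.60 and 0.964 CPM in injured ones (edgeR unadjusted p = 0.0795).

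Genes of perineurial and endoneurial fibroblasts, several of which tendon cells also express, had 9 of 12 fold changes below 0 against sham (7 without sham 1) with 0 past edgeR's threshold (1 by DESeq2, Wif1, lower). The Wnt inhibitor Wif1 stood at 226 and 1155 CPM in sham 1 and 2 and at 1109 in the uninjured library. Injured 1, 2 and 3 had 16.9, 142 and 59.2 CPM. The retinoic acid carrier Crabp2 was higher in all injured libraries than in both sham libraries, with 31.5 and 80.5 CPM in sham libraries and 223, 157 and 92.5 CPM in injured ones (edgeR unadjusted p = 0.0398). The remaining lists had 0 members past edgeR's threshold against sham. Smooth muscle and pericyte genes had 10 of 12 below 0 (Myh11 called lower by DESeq2), skeletal muscle genes 12 of 12 above 0 (Mb called higher by DESeq2) and adipocyte genes 4 of 7 below 0. Without sham 1, 8 of 12 smooth muscle and pericyte genes, 12 of 12 skeletal muscle genes and 5 of 6 adipocyte genes were above 0.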
